A study of Mus musculus with 24 samples.

Results

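Acute-phase proteins are secreted proteins whose synthesis rises in inflammation, and the C/EBP factors are leucine-zipper transcription factors that bind the promoters of many of them. The set described here holds 10 genes: 6 defence and transport proteins (Saa3, Lcn2, Hp, Wfdc17, Cp and Serpina3n), the complement component C3, and the factors Cebpa, Cebpb and Cebpd. The genes were found by their names in the array annotation, and Wfdc17, which the older annotation lists under the clone name BC089618, by its accession. They hold 13 of 41174 probes, in a design that covers 20007 genes matched to RefSeq. The genes were chosen by their log2 differences between treated and untreated cells in the 2 array sets and, for Wfdc17, between co-exposed and KBrO3 cells at 24 hr, so those differences are given as a description, with no test.

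All 24 arrays measured RNA from immortalized mouse embryonic fibroblasts (MEFs) that lack Ku70 (Xrcc6), a DNA end-joining protein, and no Ku70-proficient cells were included. KBrO3 is an oxidizing agent that damages DNA bases, and bisphenol A (BPA) is a plastics monomer with estrogenic activity. In array set 1, KBrO3 cells received 20 mM KBrO3 for 1 hr and were collected 4 or 24 hr after it was added. Co-exposed cells of set 1 had 150 μM BPA from 1 hr before KBrO3 until collection. In set 2, cells received 150 μM BPA alone, for 4 or 24 hr by the labels and for 5 or 25 hr by the methods. Each set had its own 3 untreated arrays, and every group had 3 arrays (biological replicates by the methods). The untreated arrays of set 1 carry a 4 hr label and those of set 2 no time, so a 24 hr difference from untreated cells cannot be told apart from a difference in culture time. In set 1 the untreated arrays lay on slides 1 and 2 and the 24 hr KBrO3 arrays on slides 3 and 4. Co-exposed arrays lay on slide 3 at 4 hr and on slides 4 and 5 at 24 hr. The differences of these treated groups from untreated cells therefore cannot be told apart from a difference between slides.

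An acute-phase response starts when cytokines such as interleukin-6, interleukin-1 and tumour necrosis factor activate STAT3 and NF-kB, which in turn raise Cebpb and Cebpd. The liver is the main source of circulating acute-phase proteins, but fibroblasts and adipocytes also make several, Saa3, Lcn2 and C3 among them. In fibroblasts that become fat cells, Cebpb and Cebpd rise early and Cebpa later.

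RefSeq windows (GRCm38.p6) of the 250 bases before an annotated start were available for 8 of the 10 genes, with 2 starts for Cp. Hp and Cebpd had none. The C/EBP core searched, TTGCNNAA on both strands, was found in windows of 4 genes and in 9.56% of all 32851 windows. Those 4 windows are shown because they hold letters that C/EBP factors are known to bind, and the core is in capitals.
Saa3, chr7:46715677-46715926, minus strand: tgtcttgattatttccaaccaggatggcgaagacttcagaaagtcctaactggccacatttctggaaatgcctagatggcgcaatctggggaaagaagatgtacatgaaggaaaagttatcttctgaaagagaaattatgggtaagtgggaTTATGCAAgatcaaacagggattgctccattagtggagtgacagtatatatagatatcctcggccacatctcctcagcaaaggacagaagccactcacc
Lcn2, chr2:32387740-32387989, minus strand: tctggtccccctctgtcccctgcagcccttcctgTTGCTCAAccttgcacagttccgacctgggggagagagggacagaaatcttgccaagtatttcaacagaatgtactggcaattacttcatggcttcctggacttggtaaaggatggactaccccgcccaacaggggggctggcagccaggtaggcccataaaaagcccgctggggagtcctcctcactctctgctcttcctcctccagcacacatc
Cp, second start, chr3:19956999-19957248, plus strand: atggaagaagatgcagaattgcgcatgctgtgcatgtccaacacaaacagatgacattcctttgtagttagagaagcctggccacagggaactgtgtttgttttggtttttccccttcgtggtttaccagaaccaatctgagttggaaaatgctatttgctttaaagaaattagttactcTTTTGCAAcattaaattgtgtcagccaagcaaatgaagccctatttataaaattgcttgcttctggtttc
C3, chr17:57228137-57228386, minus strand: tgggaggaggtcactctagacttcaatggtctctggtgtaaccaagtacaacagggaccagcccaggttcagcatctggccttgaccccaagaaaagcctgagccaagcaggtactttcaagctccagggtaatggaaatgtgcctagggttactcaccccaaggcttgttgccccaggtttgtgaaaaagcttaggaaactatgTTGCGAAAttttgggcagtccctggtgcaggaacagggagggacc
The core lay 99 bases before the start in Saa3 (TTATGCAA), 216 in Lcn2 (TTGCTCAA), 70 in Cp (TTTTGCAA) and 45 in C3 (TTGCGAAA). The windows of Wfdc17, Serpina3n, Cebpa and Cebpb and the first window of Cp did not hold these letters. The STAT element TTCNNNGAA, in 7.02% of all windows, and the kappa-B consensus, in 3.90%, were found in no window of the 8 genes. These are matches of letters and not measured binding sites.

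Signals are log2 values relative to the 75th percentile of the same array. In set 1, 57.7 to 68.1% of spots were well above background, and in set 2, 76.4 to 79.4%. The typical residual SD of a probe was 0.106 in set 1 and 0.318 in set 2, so the BPA-only comparisons had less precision. All 12 fibroblast markers were well above background on every untreated array. In set 1, 6 of 12 macrophage markers and 10 of 12 hepatocyte markers were not well above background on any untreated array, Ptprc and Alb among them. In untreated cells of set 2, 9 of 12 macrophage and 6 of 12 hepatocyte markers were well above background on all 3 arrays, Ptprc on none and Alb on 2 of 3. Xrcc6 itself read between -0.60 and 0.73 and was well above background on all 24 arrays. Whether its probe lies in the deleted part was not tested.

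**Figure D1:**
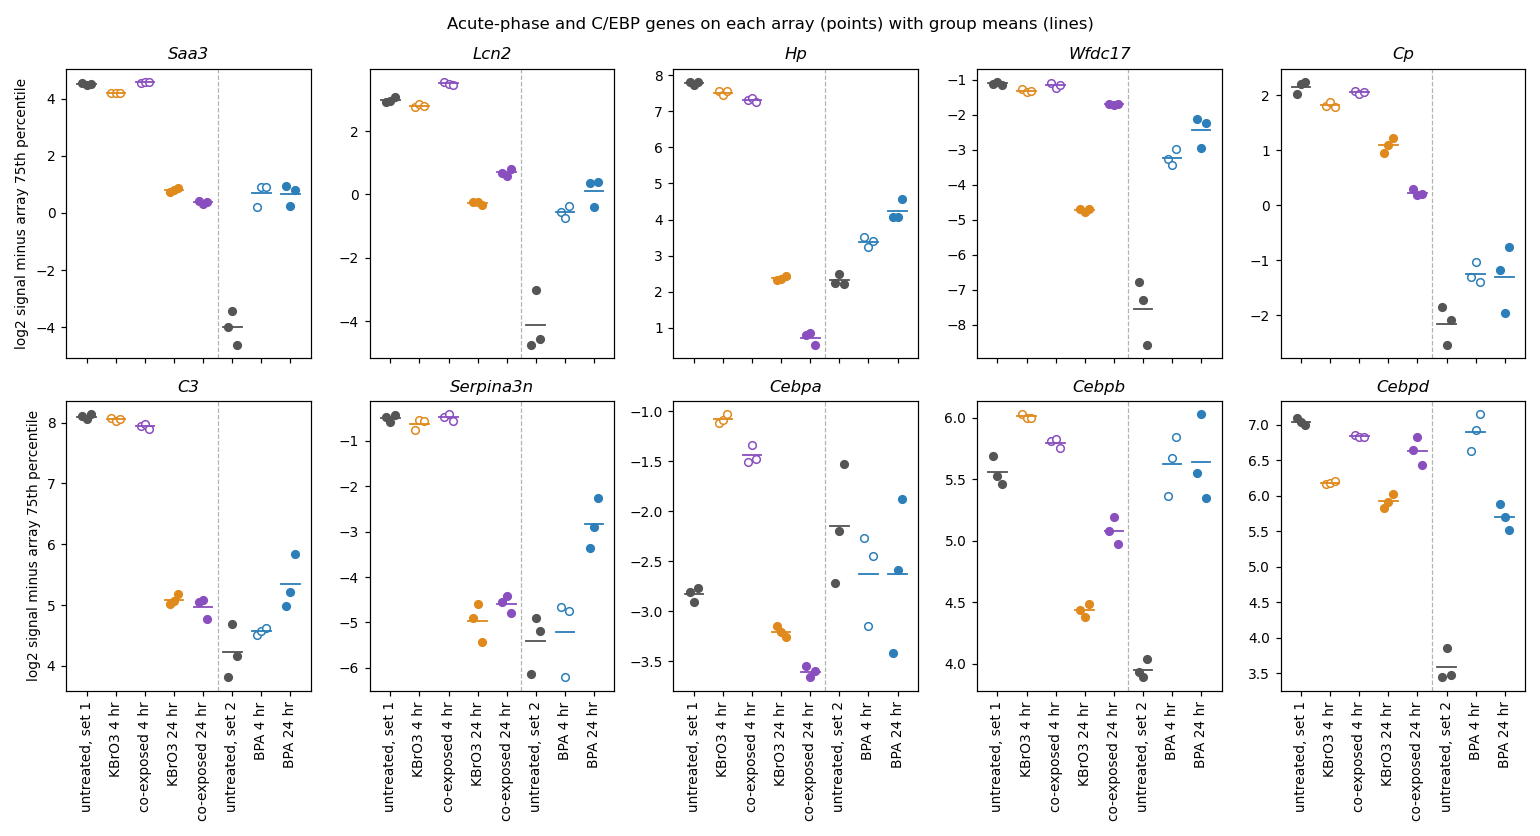
Signal of each of the 10 genes on each array (points; log2 relative to the array's 75th percentile) with the mean of 3 arrays (line), by group. The dashed line separates set 1 from set 2, which were extracted with different software versions. In set 1 the secreted proteins are below untreated cells in both 24 hr groups, Wfdc17 by only 0.60 (log2) with co-exposure, and in set 2 Saa3, Lcn2 and Wfdc17 are high in both BPA groups.

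KBrO3 alone left the acute-phase genes close to untreated levels at 4 hr and far below them at 24 hr. At 24 hr all 10 genes read lower on each of the 3 KBrO3 arrays than on any untreated array, where 35.9% of all 27310 probes tested did so and 34.1% read higher. Their median log2 difference was -3.13, against -0.02 over all probes tested. Since RNA was pooled over all cells of a dish, fewer expressing cells and less RNA per cell cannot be told apart.

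Hp, haptoglobin, which binds free hemoglobin, had the largest difference. Its untreated arrays read 7.81, 7.74 and 7.82, and the 24 hr KBrO3 arrays 2.33, 2.36 and 2.44, a log2 difference of -5.41 (SE 0.074), or 42.5-fold lower. Serpina3n, a serine protease inhibitor, read -0.47, -0.59 and -0.44 without treatment and -4.90, -4.59 and -5.43 at 24 hr, when 2 of 3 arrays were well above background. That is 22.2-fold lower (log2 -4.47, SE 0.17).

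Saa3, a serum amyloid A made outside the liver, went from 4.56, 4.48 and 4.51 to 0.74, 0.82 and 0.86, a 13.1-fold lower signal (log2 -3.71, SE 0.044). Wfdc17, a small WAP-domain protein of activated macrophages, read -1.12, -1.05 and -1.13 and then -4.70, -4.77 and -4.70 (log2 -3.63, SE 0.043). Lcn2, lipocalin 2, which starves bacteria of iron by binding their siderophores, read 2.91, 2.95 and 3.09 without treatment and -0.23, -0.24 and -0.32 at 24 hr (log2 -3.25, SE 0.064). In each of these genes the signals of a group lay close together and far from those of the other group, whose arrays were on other slides.

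C3, the protein on which all complement pathways converge, read 8.10, 8.05 and 8.14 in untreated cells and 5.02, 5.07 and 5.18 at 24 hr (log2 -3.00, SE 0.074). A second C3 probe gave -2.54 (SE 0.31). Cp, ceruloplasmin, the copper-carrying ferroxidase, differed least among the secreted proteins, from 2.02, 2.21 and 2.25 to 0.95, 1.10 and 1.23 (log2 -1.06, SE 0.074). A further probe that only the newer annotation assigns to Cp gave -1.82 (SE 0.058).

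At 4 hr after KBrO3 none of the 7 secreted proteins differed from untreated cells by more than 0.33 on the log2 scale. Of all 10 genes, 6 read lower and 2 higher on each KBrO3 array than on any untreated array, where 38.7% and 40.5% of all probes did. Cp read 1.80, 1.88 and 1.79 (log2 -0.33, SE 0.074) and Saa3 4.19, 4.20 and 4.21 (log2 -0.32, SE 0.044). The lower values of Hp (log2 -0.27) and Lcn2 (log2 -0.17) turned to 0.03 and 0.07 with normexp background correction, under which 3 genes in place of 8 did not overlap.

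The C/EBP factors did not follow a common course after KBrO3. Cebpa read -2.81, -2.91 and -2.77 in untreated cells, -1.12, -1.09 and -1.03 at 4 hr and -3.15, -3.21 and -3.26 at 24 hr. It was thus 3.36-fold higher at 4 hr (log2 1.75, SE 0.056) and 1.30-fold lower at 24 hr (log2 -0.37, SE 0.056). Its second probe gave 1.43 (SE 0.22) at 4 hr and, at 24 hr, -0.20 (SE 0.22) with overlapping arrays.

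Cebpb read 5.69, 5.53 and 5.46 without treatment, 6.03, 6.00 and 6.00 at 4 hr and 4.44, 4.38 and 4.49 at 24 hr. Its log2 differences were 0.45 and -1.13 (SE 0.066 each), and its second probe gave 0.53 and -0.78 (SE 0.11 each). Cebpd was lower at both times. Its untreated arrays read 7.10, 7.04 and 6.99, those at 4 hr 6.17, 6.18 and 6.20, and those at 24 hr 5.83, 5.91 and 6.03 (log2 -0.86 and -1.12, SE 0.082 each). Within the slide that held 1 untreated array and the 3 KBrO3 arrays of 4 hr, the differences were 1.69 for Cebpa, 0.55 for Cebpb and -0.81 for Cebpd.

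Co-exposed cells also had low levels at 24 hr. All 10 genes read lower on each co-exposed array than on any untreated array at 24 hr, where 38.0% of all probes did and 32.8% read higher, with a median log2 difference of -2.11, against -0.07 over all probes. These comparisons share their untreated arrays with those of KBrO3 alone. Hp read 0.80, 0.85 and 0.52, which is 134-fold lower than untreated (log2 -7.07, SE 0.074). Wfdc17 stayed near untreated cells at -1.69, -1.71 and -1.70, 1.51-fold lower (log2 -0.60, SE 0.043).

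Of the others at 24 hr, Saa3 (0.42, 0.31 and 0.40) was 17.6-fold lower than untreated, Serpina3n (-4.56, -4.41 and -4.80) 17.0-fold and C3 (5.05, 5.09 and 4.77) 8.73-fold. Lcn2 read 0.68, 0.59 and 0.81 (4.90-fold lower) and Cp 0.30, 0.19 and 0.21 (3.79-fold lower). The C/EBP factors were closer to untreated cells. Cebpa read -3.55, -3.66 and -3.60 (log2 -0.77), Cebpb 5.08, 5.19 and 4.97 (log2 -0.48) and Cebpd 6.64, 6.82 and 6.43 (log2 -0.41).

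At 4 hr of co-exposure 3 genes read higher and 3 lower than untreated cells on every array, where 44.5% and 39.1% of all probes did. Cebpa was again higher, at -1.51, -1.34 and -1.48 (2.62-fold, log2 1.39, SE 0.056), and Lcn2 read 3.56, 3.50 and 3.47 (1.44-fold higher, log2 0.53, SE 0.064). Hp read 7.30, 7.36 and 7.26 (log2 -0.48, SE 0.074). The small differences of Cebpb (0.24), Cebpd (-0.21) and C3 (-0.16) changed sign with the processing, to -0.04 with quantile normalization for Cebpb and to 0.10 and 0.14 with normexp correction for the others.

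**Figure D2:**
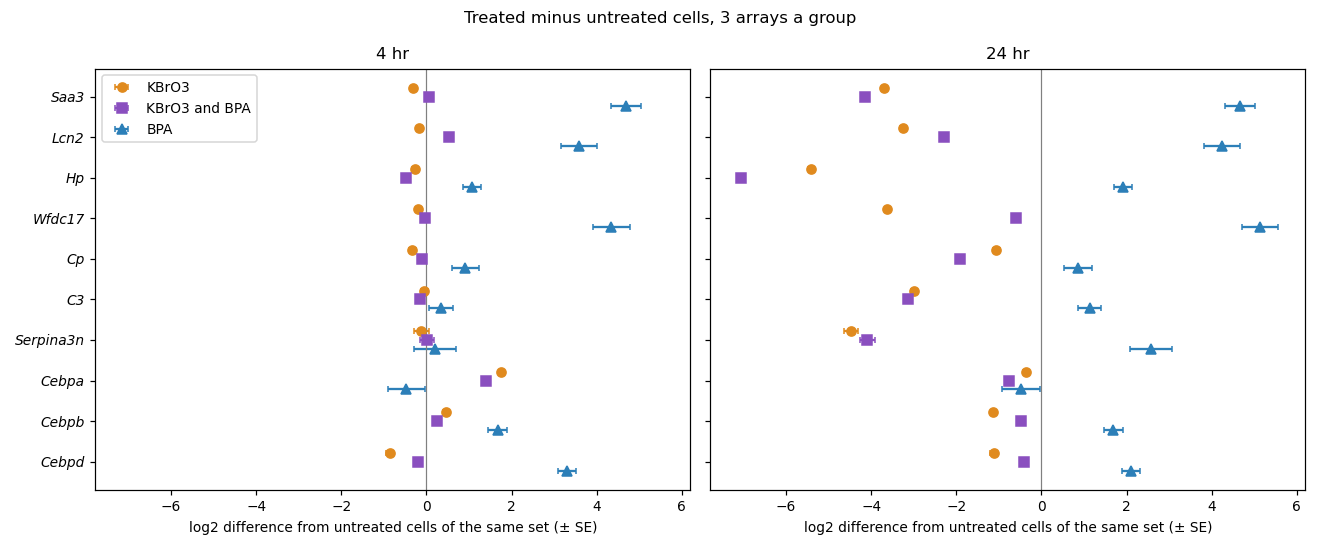
Log2 difference of each treatment from the untreated cells of its own array set, at 4 hr (left) and 24 hr (right), with bars of 1 SE (3 arrays a group; bars smaller than the marker are hidden). At 24 hr every KBrO3 and co-exposure point is below 0, while 9 of 10 BPA-only points are above it.

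With BPA alone most of the genes read higher than in untreated cells. At 4 hr, 7 of the 10 genes read higher on each BPA array than on any untreated array of set 2 and none lower, where 12.6% of all 31810 probes tested were higher and 13.3% lower. At 24 hr, 8 were higher and none lower, where 11.2% of probes were higher and 10.0% lower. The median log2 difference was 1.37 and then 2.01, against -0.03 and -0.01 over all probes.

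Saa3 read -3.98, -3.41 and -4.62 in untreated cells of set 2, 0.22, 0.92 and 0.92 at 4 hr and 0.96, 0.23 and 0.81 at 24 hr. It was 25.8-fold higher at 4 hr (log2 4.69, SE 0.35) and 25.4-fold at 24 hr (log2 4.67, SE 0.35). Wfdc17 had the largest difference at 24 hr. It read -6.79, -7.29 and -8.59 without treatment, with 2 of 3 arrays well above background, then -3.26, -3.42 and -2.98 at 4 hr and -2.12, -2.96 and -2.22 at 24 hr. The log2 differences were 4.34 and 5.13 (SE 0.43 each).

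Lcn2 went from -4.76, -3.03 and -4.57 to -0.54, -0.73 and -0.36 and then 0.36, -0.40 and 0.39, log2 differences of 3.58 and 4.24 (SE 0.43 each). Hp read 2.24, 2.49 and 2.22, then 3.52, 3.23 and 3.41, then 4.07, 4.06 and 4.56 (log2 1.07 and 1.92, SE 0.21 each). For these 4 genes no BPA array reached down to an untreated one.

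Serpina3n and C3 stood apart from untreated cells at 24 hr alone. Serpina3n read -6.14, -4.90 and -5.19 without treatment, -4.67, -6.21 and -4.74 at 4 hr and -3.36, -2.89 and -2.27 at 24 hr (log2 2.57, SE 0.49). Its 4 hr difference was 0.20 (SE 0.49), and 1.43 within the slide that held arrays of both groups. C3 read 3.81, 4.69 and 4.16, then 4.51, 4.58 and 4.63, then 4.99, 5.21 and 5.84 (log2 1.13 at 24 hr, SE 0.28), and its second probe gave 0.59 (SE 0.40) with overlapping arrays. Within the 2 slides that held untreated and 24 hr BPA arrays, Serpina3n differed by 1.54 and 2.30 and C3 by 0.31 and 1.05. Cp read -1.84, -2.54 and -2.08 and then -1.30, -1.03 and -1.40 (log2 0.91, SE 0.32, or 0.49 within 1 slide), while the further probe of the newer annotation gave 0.12 (SE 0.29) with overlapping arrays. At 24 hr its BPA arrays (-1.17, -1.95 and -0.76) overlapped the untreated ones.

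Among the factors, Cebpd and Cebpb were higher with BPA and Cebpa was not. Cebpd read 3.44, 3.85 and 3.48, then 6.63, 6.92 and 7.15 at 4 hr and 5.88, 5.70 and 5.51 at 24 hr, which is 9.91-fold and 4.30-fold higher (log2 3.31 and 2.11, SE 0.21 each). Cebpb read 3.93, 3.89 and 4.04, then 5.36, 5.67 and 5.84, then 5.55, 6.03 and 5.35 (log2 1.67 and 1.69, SE 0.23 each), and its second probe gave 1.59 and 1.58 (SE 0.33 each). Cebpa arrays overlapped at both times, with log2 differences of -0.47 and -0.48 (SE 0.44 each). Within the slides shared with untreated arrays, Cebpd differed by 3.44 at 4 hr and by 2.03 and 2.22 at 24 hr, while Cebpa differed by 0.36 at 4 hr and by -1.21 and -1.05 at 24 hr.

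The remaining comparisons set treated groups against each other, by limma with Benjamini-Hochberg adjustment over all probes of the set. Their arrays also entered the comparisons with which the genes had been chosen. Each difference between treated groups of a set is the difference of a pair of those comparisons. The change of the BPA effect is built from them too. For the 10 genes, calls and p-values therefore describe the fits and are not independent of the choice of genes. Differences between 4 and 24 hr are given with no p-value. After KBrO3 alone all 10 genes were lower at 24 than at 4 hr and were called so, where 42.3% of all probes were called lower. In co-exposed cells all 10 were also called lower, where 48.4% of all probes were. In neither treatment did a slide hold arrays of both times. Hp was 35.3-fold lower at 24 hr with KBrO3 (log2 -5.14, SE 0.074) and 95.9-fold with co-exposure (log2 -6.58, SE 0.074). Cebpa was 4.36-fold and 4.46-fold lower.

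The smallest of these differences did not hold under other scalings. Cebpd, at -0.26 with KBrO3 and -0.21 with co-exposure (SE 0.082 each), turned to 0.38 and 0.35 with quantile normalization, and the latter to 0.25 with arrays centred on their median. The call of Cebpd in co-exposed cells was also lost when any of 5 arrays was left out (co-exposed 4 hr replicates 1, 2 and 3, and co-exposed 24 hr replicates 1 and 3). Wfdc17 in co-exposed cells was lower by 0.55 (log2, SE 0.043), and by 0.09 and not called when arrays were centred on their median.

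With BPA alone, 2 genes were called between 4 and 24 hr, where 3.79% of all probes were. As with the other time differences, these calls describe the fit and are not independent of the choice of genes. Serpina3n was higher at 24 hr (log2 2.37, SE 0.49) and Cebpd lower (log2 -1.20, SE 0.21). Neither call held with the slide as a fixed block (log2 0.49 and -1.32) or with normexp correction, and both held with the slide as a random block. The Serpina3n call was also lost without any 1 of 5 arrays (BPA 4 hr replicates 1, 2 and 3 and BPA 24 hr replicates 2 and 3), and that of Cebpd without any 1 of 4 (BPA 4 hr replicates 2 and 3 and BPA 24 hr replicates 2 and 3). For Saa3 the difference was -0.02 (SE 0.35) and for Cebpb 0.03 (SE 0.23).

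Adding BPA to KBrO3 moved each gene by 1.63-fold or less at 4 hr. Of the 10 genes 5 were called higher in co-exposed than in KBrO3 cells and 3 lower, where 29.2% and 28.6% of all probes were called. Both groups had been set against the same untreated arrays when the genes were chosen. These calls and p-values are thus no independent support. Lcn2 was 1.63-fold higher (log2 0.70, SE 0.064, adjusted p = 3.59e-06), Cebpd 1.57-fold (log2 0.65, SE 0.082, adjusted p = 4.10e-05) and Saa3 1.29-fold (log2 0.37, SE 0.044, adjusted p = 2.64e-05). Cebpa was 1.29-fold lower (log2 -0.36, SE 0.056, adjusted p = 0.000199). On every array of these 4 genes the co-exposed values lay on one side of the KBrO3 values. The calls of Saa3 and Cebpa were lost with normexp correction (adjusted p = 0.221 and 0.692) and in a fit of all 24 arrays (0.264 and 0.407), that of Saa3 also with median centring (0.0537) and that of Lcn2 in the 24-array fit (0.0877).

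The other 4 calls at 4 hr were of 0.24 or less on the log2 scale: Cp at 0.24, Wfdc17 at 0.16, and Hp and Cebpb at -0.21 each (adjusted p from 0.00648 to 0.0271). Median centring took Wfdc17 to 0.02 (adjusted p = 0.841) and Cp to 0.09 (0.514), and quantile normalization took Hp to -0.11 (0.195) and Cebpb to -0.09 (0.167). Hp missed the threshold without any 1 of 4 arrays (replicates 1 and 3 of either group; adjusted p from 0.0625 to 0.0839), Cp without KBrO3 replicate 3 or co-exposed replicate 1 (0.0528 and 0.0523), and Cebpb without co-exposed replicate 3 (0.0572). C3 (95% confidence interval from -0.27 to 0.05) and Serpina3n (from -0.23 to 0.51) were not called, although C3 was (adjusted p = 0.0473) without co-exposed 24 hr replicate 3. The 2 groups of 4 hr lay on different slides, and 5 calls were made with the slide as a random block and 2 with normexp correction.

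At 24 hr the genes moved in different directions. Wfdc17 is left out of the count, since this difference was itself used in choosing it. For the other genes it is the difference of a pair of comparisons used in the choice, so calls and p-values describe the fit. Without Wfdc17, 3 of 9 genes were called higher and 4 lower, where 23.1% and 23.7% of all probes were. With normexp correction 4 in place of 7 were called. Hp was 3.15-fold lower with BPA than with KBrO3 alone (log2 -1.66, SE 0.074, adjusted p = 8.48e-09), Cp 1.82-fold lower (log2 -0.86, SE 0.074, adjusted p = 1.75e-06) and Saa3 1.35-fold lower (log2 -0.43, SE 0.044, adjusted p = 7.42e-06). Lcn2, in contrast, was 1.94-fold higher (log2 0.96, SE 0.064, adjusted p = 2.26e-07). The iron-binding lipocalin and the hemoglobin-binding haptoglobin thus differed in opposite directions in the same cells.

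All 3 C/EBP factors were called at 24 hr, again not independently of the choice of genes. Cebpd (log2 0.71, SE 0.082, adjusted p = 2.15e-05) and Cebpb (log2 0.65, SE 0.066, adjusted p = 7.93e-06) were higher with BPA, and Cebpa was lower (log2 -0.40, SE 0.056, adjusted p = 0.000117). With normexp correction the calls of Cebpa (adjusted p = 0.923), Cebpb (0.0578) and Saa3 (0.173) were lost, and in a fit of all 24 arrays those of Cebpa (0.414) and Saa3 (0.23). C3 was not called by the probe that represents it (log2 -0.12, 95% confidence interval from -0.28 to 0.04), though it was with quantile normalization (log2 -0.25, adjusted p = 0.00222), while its other probe was lower (log2 -1.19, SE 0.31, adjusted p = 0.00770). That probe read -4.38, -4.53 and -2.90 on the KBrO3 arrays, and without KBrO3 replicate 3 the difference was -0.67 (adjusted p = 1.53e-05). Serpina3n (log2 0.38, 95% confidence interval from 0.02 to 0.75, adjusted p = 0.0822) passed the threshold without KBrO3 24 hr replicate 2 (0.00964) or co-exposed 24 hr replicate 3 (0.0459), and with quantile normalization (0.0196), median centring (0.0189) or the slide as a random block (0.0485).

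Wfdc17, given with no test, was 8.15-fold higher in co-exposed cells at 24 hr, at -1.69 to -1.71 on the co-exposed and -4.70 to -4.77 on the KBrO3 arrays. Slide 4 of set 1 held 2 arrays of each group, and the differences within it were 3.04 for Wfdc17, 0.92 for Lcn2, -1.58 for Hp, -0.92 for Cp, -0.48 for Saa3, 0.77 for Cebpd and 0.70 for Cebpb.

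**Figure D3:**
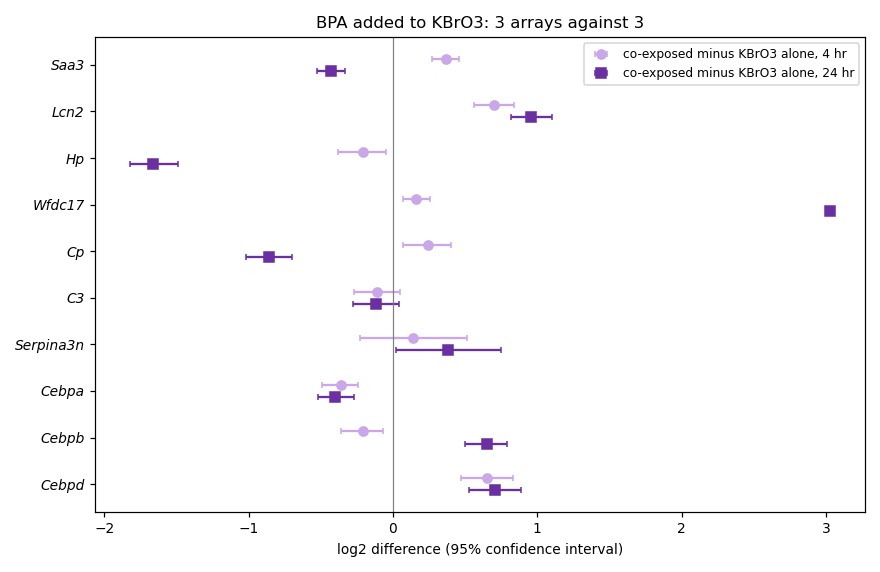
Log2 difference of co-exposed from KBrO3 cells at 4 hr (circles) and 24 hr (squares), with 95% confidence intervals from the limma fit (3 arrays against 3; none for Wfdc17 at 24 hr, whose difference was used in choosing the genes). Saa3, Cp and Cebpb change sign between the times, Hp is further below 0 at 24 hr, and Wfdc17 lies at 3.03 at 24 hr.

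The change of the BPA effect between 4 and 24 hr was also fitted. It is built from comparisons with which the genes were chosen, so its calls and p-values describe the fit and are no independent support. The change was called for 5 of 9 genes, where 54.3% of all probes were called, so the count lies near the background. Normexp correction gave 2 calls, with Saa3 (adjusted p = 0.0669), Cebpb (0.0814) and Lcn2 (0.648) lost, and a fit of all 24 arrays gave 3, with Saa3 (0.0893) and Lcn2 (0.72) lost. The effect fell for Hp by 1.44 (SE 0.11, adjusted p = 1.09e-06), for Cp by 1.10 (SE 0.10, adjusted p = 7.71e-06) and for Saa3 by 0.80 (log2, SE 0.062, adjusted p = 1.73e-06). It rose for Cebpb by 0.86 (SE 0.094, adjusted p = 2.13e-05) and for Lcn2 by 0.26 (SE 0.090, adjusted p = 0.0317). The Lcn2 call was lost without any 1 of 6 arrays (KBrO3 4 hr replicates 2 and 3, co-exposed 4 hr replicates 2 and 3, KBrO3 24 hr replicate 3 and co-exposed 24 hr replicate 3; adjusted p from 0.0530 to 0.0774), with the replicate block (0.0513) and with the slide as a random block (0.255). For Cebpd the change was 0.06 (95% confidence interval from -0.20 to 0.31) and for C3 -0.01 (from -0.24 to 0.22). The C3 change was called with quantile normalization (-0.30, adjusted p = 0.00521), with the mean of its probes (-0.67, adjusted p = 0.0372) and by its other probe (-1.33, adjusted p = 0.0237, or -0.81 and 5.12e-05 without KBrO3 24 hr replicate 3).

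Untreated cells of the 2 sets had very different levels of these genes. The sets were normalized separately and read by different scanner software, so the values are set side by side with no test. Over 27180 probes tested in both sets, the untreated mean of set 1 minus that of set 2 had a median of 0.05 and a central 95% range from -1.60 to 1.71. Saa3 differed by 8.52 (means of 4.52 and -4.01), and no other probe had a larger difference. Lcn2 differed by 7.10, with 1 probe above it, and Wfdc17 by 6.46.

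Hp (5.47), Serpina3n (4.91), Cp (4.31), C3 (3.88) and Cebpd (3.45) also lay above that range, Cebpb (1.61) just within it and Cebpa (-0.68) well inside. In the units of each set, the 24 hr KBrO3 mean of Hp (2.38) was near the untreated mean of set 2 (2.31), and the BPA mean of Cebpd at 4 hr (6.90) was near the untreated mean of set 1 (7.04). Fold changes from untreated cells thus start from different levels in the 2 sets.

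Other acute-phase proteins, from a list of 42 genes, were mostly lower at 24 hr in set 1. This list and those below were chosen with earlier results of these data known. Their counts and p-values describe the fits and are not independent of that choice. Of 27 tested, 6 were called higher and 9 lower at 4 hr of KBrO3, where 36.3% and 35.8% of all probes were. At 24 hr of KBrO3 21 were lower and 1, Wfdc2, higher, with a median log2 difference of -1.83. With co-exposure 19 were lower and 3 higher (Crp and the metallothioneins Mt1 and Mt2). Crp was well above background on 1 of 3 co-exposed arrays of 24 hr and on no untreated array. Of the genes called lower, 4 with KBrO3 and 8 with co-exposure were not well above background on any treated array of that group. Of all probes, 34.0% were called lower and 32.1% higher with KBrO3, and 37.0% lower and 32.9% higher with co-exposure. Lbp, which hands bacterial lipopolysaccharide to its receptor, fell from 2.70 to -2.13 with KBrO3 (log2 -4.83, SE 0.073, adjusted p = 2.77e-13). Steap4, a metalloreductase, was not well above background at 24 hr of co-exposure and was at least 33.7-fold lower than untreated (adjusted p = 3.42e-13).

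With BPA alone, 12 of 35 list genes were higher and none lower at 4 hr, and 7 higher and none lower at 24 hr, where 2.83% and 1.39% of all probes were called higher and 1.41% and 2.02% lower. Of the genes called higher, 3 at 4 hr (Saa4, Wfdc18 and Wfdc21) and 1 at 24 hr (Wfdc21) were not well above background on any untreated array and entered the test through treated arrays, so they could hardly be called lower. Serpina3f, a relative of Serpina3n, rose 17.8-fold at 4 hr (log2 4.16, SE 0.41, adjusted p = 0.00118), and the chitinase-like Chil1 rose at 24 hr (log2 2.72, SE 0.32, adjusted p = 0.00463). Genes within the Saa, Orm and Serpina3 families are related in sequence, so some of their probes may share signal, which was not tested. Over all lists, 33 genes were called with BPA at 4 hr and 22 at 24 hr, and none in either with the slide as a fixed block. The 4 hr count was 14 to 18 without any 1 of the 3 BPA 4 hr arrays, and the 24 hr count 11 to 14 without untreated replicate 1 or 3, BPA 4 hr replicate 3 or BPA 24 hr replicate 2.

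Most complement genes of a list without C3 fell at 24 hr in set 1, and none of them was called higher with BPA. Of 16 tested, 12 were lower with KBrO3 and 13 with co-exposure, where 34.0% and 37.0% of all probes were, and Masp2, a lectin pathway protease, was higher in each. Cd55, which protects cells from complement, fell furthest in both (log2 -3.98 and -4.32, adjusted p = 1.21e-13 and 3.85e-14). It also fell with BPA at 4 and 24 hr (log2 -1.24 and -1.78, adjusted p = 0.0418 and 0.0127), as did properdin, Cfp, at 4 hr and Cd59a at 24 hr, the only other complement genes of 18 tested that were called.

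The cytokines, receptors and signalling proteins that induce acute-phase genes were called in both directions at 4 hr and mostly lower at 24 hr in set 1. Of 31 tested, 15 were higher and 12 lower at 4 hr of KBrO3, and 18 higher and 11 lower with co-exposure, where 36.3% and 41.6% of all probes were called higher and 35.8% and 37.0% lower. Il11 rose most, by 4.14 with KBrO3 and 3.74 with co-exposure (adjusted p = 1.94e-11 and 3.39e-11), and Tlr4, the lipopolysaccharide receptor, fell by 3.12 on the log2 scale with co-exposure. The 4 hr split with KBrO3 lies near those shares. At 24 hr 23 of the 31 were lower in each and 5 and 4 higher, where 34.0% of all probes with KBrO3 and 37.0% with co-exposure were called lower. Il6 went from 0.39 in untreated cells to 2.30 and 2.26 at 4 hr and to -1.56 with KBrO3 at 24 hr.

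BPA alone raised 12 of the 31 and lowered none at 4 hr, where 2.83% of all probes were called higher, and raised Il6, Osmr and Bcl3 at 24 hr, where 1.39% were. Il6 rose most at both times, from -4.95 to 0.71 at 4 hr (log2 5.66, SE 0.35, adjusted p = 0.000152) and to -2.43 at 24 hr (log2 2.52, adjusted p = 0.00748). Between the times Il6 fell (log2 -3.14, SE 0.35, adjusted p = 0.00235), 1 of 10 genes of this list called lower, with none called higher, where 3.79% of all probes were called in either direction. No list gene was called between the BPA times by the Bonferroni threshold, with normexp correction or with the slide as a fixed block, and 16 were in the fit as given.

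Most relatives and partners of the C/EBP factors rose at 4 hr in set 1, and some did with BPA alone. Of 11 tested, 9 were higher with KBrO3, 10 with co-exposure and 5 with BPA (Trib1, Trib3, Ddit3, Atf4 and Nfil3), where 36.3%, 41.6% and 2.83% of all probes were called higher. In each, 1 was lower, the clock factor Dbp. Trib1, a pseudokinase that directs C/EBPα to degradation, rose by 2.61 with KBrO3 and by 1.88 with BPA (adjusted p = 1.12e-12 and 0.000862). Ddit3 (CHOP), a C/EBP relative of the stress response, rose by 3.26 with co-exposure (adjusted p = 1.38e-12). Trib3 was higher in co-exposed than in KBrO3 cells at 4 hr (log2 1.78, SE 0.050, adjusted p = 7.49e-10) and 24 hr (log2 2.24, SE 0.050, adjusted p = 7.89e-11).

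Adipocyte genes that C/EBP factors and PPARγ activate were mixed. Pparg, like Cebpa, was higher at 4 hr of KBrO3 (log2 1.64, SE 0.038, adjusted p = 3.00e-12), and 4 of 10 list genes were higher and 3 lower, near the 36.3% and 35.8% of all probes so called. At 24 hr 7 of 10 were lower and none higher with KBrO3 and with co-exposure alike, where 34.0% and 37.0% of all probes were lower, Lpl among the 7 with KBrO3 (log2 -2.46, adjusted p = 1.18e-07). With BPA 1 of 14 was called lower at each time, Plin4 at 4 hr and Slc2a4 at 24 hr, and none higher.

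**Figure D4:**
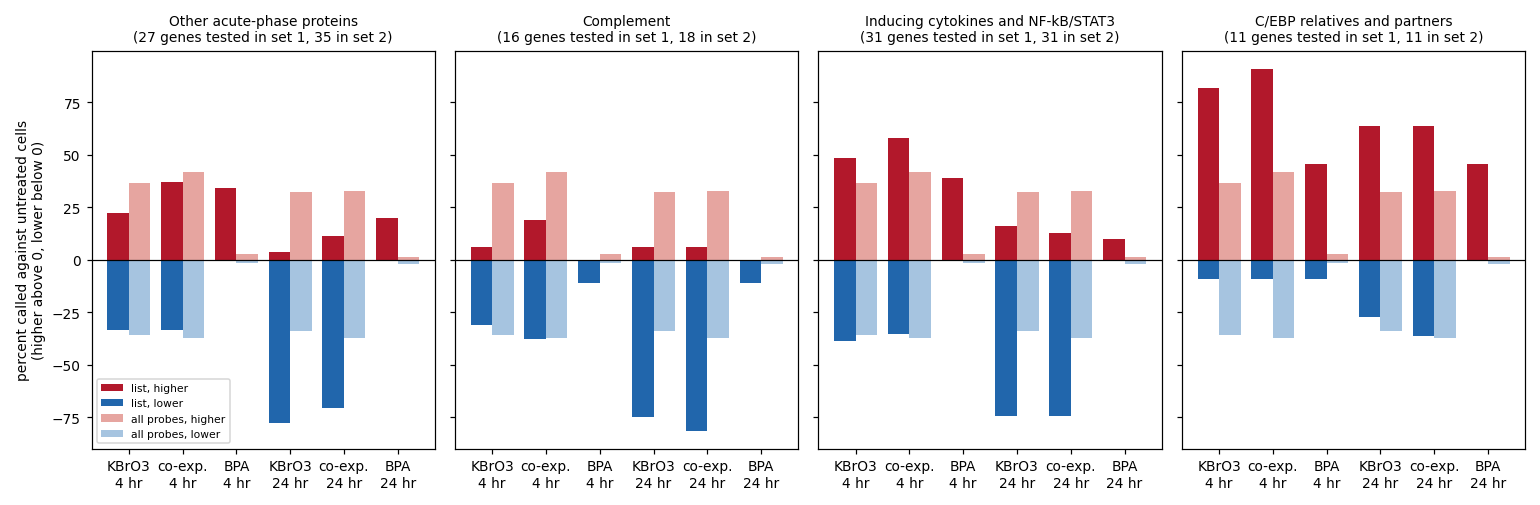
Percent of the tested genes of 4 lists called higher (up) or lower (down) against the untreated cells of the same set, beside the percent of all probes called (pale bars), by limma with Benjamini-Hochberg adjusted p below 0.05. With KBrO3 at 24 hr, 21 of 27 acute-phase and 12 of 16 complement genes are lower, and with BPA at 4 hr 12 of 35 acute-phase genes are higher.

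Fibroblast markers were also lower at 24 hr in set 1. All 12 were called lower at 24 hr of KBrO3 and of co-exposure (median log2 -1.38 and -1.83, against -0.02 and -0.07 over all probes), where 34.0% and 37.0% of all probes were, when Thy1 was not well above background in co-exposed cells. Their summed linear signal ranged from 1910 to 2020 in untreated arrays, from 731 to 821 with KBrO3 and from 511 to 595 with co-exposure. At 4 hr of co-exposure 10 of the 12 were lower and 1 higher (median log2 -0.53, where 37.0% of all probes were lower), while the acute-phase list split into 10 higher and 9 lower (median -0.10). Of these 10, 2 (Crp and Itih3) were not well above background on any untreated array and entered the test through co-exposed arrays of 4 hr. At 4 hr of KBrO3, 5 fibroblast markers were lower and 2 higher, where 35.8% and 36.3% of all probes were. In set 2 none was called at 4 hr of BPA and 1, Thy1, was lower at 24 hr, with summed signals of 747 to 845 in untreated and 610 to 712 in 24 hr BPA arrays. The part of these markers in the 24 hr differences was not tested.

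Macrophage markers of set 1 had summed signals of 0.886 to 0.997 in untreated arrays. The sums were 1.48 to 1.52 at 4 hr of KBrO3 and 1.22 to 1.34 at 4 hr of co-exposure, then 0.589 to 0.793 and 0.712 to 0.779 at 24 hr. At 4 hr 2 of 5 tested were called higher and none lower in each treatment, near the 36.3% and 41.6% of all probes called higher, and the mean of Cd68, a lysosomal protein of macrophages, went from -3.08 in untreated to -0.83 in KBrO3 cells. In set 2 they summed to 0.873 to 1.26 in untreated, 0.697 to 0.911 in 4 hr BPA and 0.576 to 0.702 in 24 hr BPA arrays. No array had Ptprc well above background, and of 11 macrophage markers tested with BPA none was called higher, none lower at 4 hr and 2 lower at 24 hr (2.02% of all probes). Hepatocyte markers summed to 0.244 to 0.286 in untreated and 0.236 to 0.462 in 24 hr BPA arrays, and none of 8 tested was called with BPA. Epithelial markers summed to 1.15 to 2.46 and 0.364 to 0.941 in the same groups, and endothelial markers to 2.67 to 4.12 and 3.54 to 5.62. At 4 hr of BPA the endothelial sum, 5.34 to 7.15, lay above that of every untreated array, and none of 6 endothelial markers tested was called. In set 1, 3 of 3 hepatocyte and 3 of 4 epithelial markers tested were called higher at 4 hr of KBrO3, where 36.3% of all probes were, and the epithelial sum was 1.97 to 2.03, against 1.11 to 1.30 in untreated arrays. The hepatocyte marker Ambp was well above background on no untreated array and entered the test through 4 hr arrays, so it could hardly be called lower. At 24 hr of co-exposure 3 of 4 epithelial markers were lower, where 37.0% of all probes were, with a sum of 0.453 to 0.523. The part of these markers in the results was not tested.

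Across all 24 arrays, each taken relative to the untreated mean of its set, the genes most like 3 of the members were sought among 14740 genes. Saa3 was most like Lcn2 (Pearson r = 0.982), Plac8 (0.969) and the mitochondrial superoxide dismutase Sod2 (0.967). Hp was most like C3 (0.986) and complement factor B, Cfb (0.986). Cebpd was most like Casp4 (0.980), Iigp1 (0.968) and Calhm6 (0.956). The arrays share groups, sets and untreated baselines, so these values describe likeness and carry no test.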

How the data were processed

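RNA of 24 cultures was hybridised to 1-colour Agilent mouse arrays of one design, 1 array a sample. Agilent Feature Extraction is named as 9.5 by the methods and as 12.0 by the submitters' processing notes. The scanner output carries version 9.5.3.1 on every array of set 1 and 12.0.0.7 on every array of set 2. The deposited intensity values are that output, as the authors obtained it. They are background-subtracted within the array and not normalized between arrays. The deposited value table held the same intensities.

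From these, log2 of the processed signal minus log2 of the array's 75th percentile was taken, without control spots and outlier spots, and spots of a probe were averaged. Probes entered the test of a set where all 3 arrays of some group were well above background. Each set was fitted apart with limma 3.58.1 (R 4.3.3), with all its groups. P-values were adjusted over all tested probes by Benjamini-Hochberg, and a call needed a value below 0.05. Fits were tested on simulated data. Of several probes the one with the highest mean signal stands for its gene. Named list genes are those called with the largest rise or fall, and those that fill out a count of 5 or fewer were named after their values were seen. The members and lists were chosen with earlier results of these data known. Member differences from untreated cells and between times therefore carry no p-value. All calls, and the other p-values, of members and list genes describe the fits and are not independent of that choice. Alternatives were quantile normalization, median centring, normexp background correction (median spot signal in set 2), other filters, weights, fits and blocks, the methods' Bonferroni threshold (adjusted p below 0.01 and fold above 1.5), and leaving out each array.

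Only 3 arrays a group limit the precision. Replicate numbers did not pair the arrays. One of the genes most like a member is not reported here.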

Additional observations from a re-analysis of the deposited data

Results flagged for a closer look

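For 5 genes the effect of adding BPA to KBrO3 differed between 4 and 24 hr by the test of the change itself (limma, Benjamini-Hochberg adjusted p, 3 arrays a group), a count near the background, since 54.3% of all probes were called. The change is built from comparisons with which the genes were chosen, so these p-values describe the fit and are no independent support. The log2 effect went from 0.37 to -0.43 for Saa3 (change -0.80, adjusted p = 1.73e-06), from 0.24 to -0.86 for Cp (change -1.10, adjusted p = 7.71e-06) and from -0.21 to -1.66 for Hp (change -1.44, adjusted p = 1.09e-06). It went from -0.21 to 0.65 for Cebpb (change 0.86, adjusted p = 2.13e-05) and from 0.70 to 0.96 for Lcn2 (change 0.26, adjusted p = 0.0317). The Lcn2 call was lost without any 1 of 6 arrays (adjusted p from 0.0530 to 0.0774), with the replicate block (0.0513), with the slide as a random block (0.255), with normexp correction (0.648) and in the 24-array fit (0.72). The Saa3 call was lost with normexp (0.0669) and in the 24-array fit (0.0893), and the Cebpb call with normexp (0.0814).

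BPA alone and BPA added to KBrO3 moved 3 genes in opposite directions on all arrays. At 4 hr the log2 differences were 1.07 with BPA alone and -0.21 with BPA added for Hp, and 1.67 and -0.21 for Cebpb. With quantile normalization the effects of added BPA shrank to -0.11 for Hp and -0.09 for Cebpb (adjusted p = 0.195 and 0.167), and neither was called with normexp correction (0.729 and 0.664) or with the slide as a random block (0.126 and 0.0526). At 24 hr the log2 differences were 4.67 with BPA alone and -0.43 with BPA added for Saa3, and 1.92 and -1.66 for Hp. The effect of added BPA on Saa3 at 24 hr was not called with normexp correction (adjusted p = 0.173) or in the 24-array fit (0.23). The arrays come from different sets, and the difference between these effects was not tested.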

How the results depend on the processing

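Of 259 counts, 212 stayed within 1.5 times their value under settings that left out no array, and 2927 of 3206 log2 differences of single members kept their direction and call or moved by less than the replicate spread. Of the other differences, 8 that had been called or had no overlap between arrays turned direction, 98 lost their call and 14 gained one. A further 159 moved by more than the spread, and some of these, small or uncalled, also changed sign. With the slide as a fixed block, Cebpa at 4 hr of BPA went to 0.36, and between the BPA times Lcn2 went to -0.54 and C3 to -0.08. The 8 reversals and the changed counts are given by value here, and the causes were not tested. Directions turned with normexp correction for Lcn2 (0.07) and Hp (0.03) at 4 hr of KBrO3 and for C3 (0.14) and Cebpd (0.10) at 4 hr of co-exposure, where Cebpb turned with quantile normalization (-0.04). Cebpd from 4 to 24 hr turned with quantile normalization (0.38 with KBrO3, 0.35 with co-exposure) and with median centring (0.25 with co-exposure).
Members that did not overlap at 4 hr of KBrO3 went from 8 to 3 with normexp. Members called at 4 hr of co-exposure against KBrO3 (8) were 1 by the Bonferroni threshold, 5 with quantile normalization, 5 with median centring, 2 with normexp, 1 with all 24 arrays in 1 fit and 5 with the slide as a random block. At 24 hr (7) they were 3 by Bonferroni and 4 with normexp. Between the BPA times (2) they were 0 by Bonferroni, with normexp and with the slide as a fixed block, 1 with median centring and with no filter, and 4 in the 24-array fit. For the change of the BPA effect (5) they were 3 by Bonferroni, 2 with normexp and 3 in the 24-array fit.
List genes called against untreated cells were 83 at 4 hr of KBrO3 (Bonferroni 28, normexp 53, 24-array fit 55), 104 at 24 hr (Bonferroni 54), 96 at 4 hr of co-exposure (Bonferroni 39, normexp 63), 106 at 24 hr (Bonferroni 65), 33 at 4 hr of BPA (Bonferroni 2, normexp 3, 24-array fit 56, slide block 0) and 22 at 24 hr (Bonferroni 0, normexp 0, its 6 arrays alone 3, 24-array fit 49, slide block 0). For co-exposure against KBrO3 they were 75 at 4 hr (Bonferroni 9, normexp 22, 24-array fit 41) and 64 at 24 hr (Bonferroni 17, normexp 22, 24-array fit 32). Between times they were 101 with KBrO3 (Bonferroni 65), 109 with co-exposure (Bonferroni 61) and 16 with BPA (Bonferroni 0, normexp 0, 24-array fit 49, slide block 0).
Leaving out 1 array gave 8 to 10, 10 to 10, 6 to 8, 10 to 10, 7 to 8 and 8 to 9 members not overlapping (KBrO3 4 and 24 hr, co-exposure 4 and 24 hr, BPA 4 and 24 hr). Members called ranged from 6 to 9 and 7 to 8 for added BPA at 4 and 24 hr, from 10 to 10, 9 to 10 and 0 to 2 between times (KBrO3, co-exposure, BPA), and from 4 to 5 for the change of the effect. List counts against untreated cells ranged from 74 to 88, 101 to 106, 93 to 101, 100 to 109, 14 to 32 and 11 to 19, those for added BPA from 70 to 83 and 57 to 67, and those between times from 99 to 107, 108 to 113 and 5 to 16. The count between the BPA times was 5 to 9 without BPA 4 hr replicate 2 or 3 or BPA 24 hr replicate 2.
Normexp moved the median of all probes by about -0.455 at 4 hr of KBrO3 and -0.518 at 24 hr of co-exposure, and median centring moved it to 0.251 at 24 hr of co-exposure. Against untreated cells at 24 hr, all probes split into 8774 higher and 9296 lower with KBrO3 (5000 and 13320 with normexp, 10329 and 6602 with median centring) and 8993 and 10100 with co-exposure (5611 and 13257, 12762 and 5959). At 4 hr they split into 9919 and 9779 with KBrO3 (5546 and 8209 with normexp) and 11370 and 10092 with co-exposure (5561 and 8764 with normexp). For added BPA median centring gave 4758 and 9557 in place of 7966 and 7823 at 4 hr and 8673 and 3079 in place of 6298 and 6463 at 24 hr. The replicate numbers did not pair the arrays: residuals of same-numbered arrays had mean r = -0.0294 in set 1 and 0.00202 in set 2. With the replicate block 8, 7, 10, 10, 1 and 4 members were called in the 6 comparisons above, and between the BPA times Serpina3n lost its call. Arrays of a slide correlated at 0.634 in set 1 and 0.115 in set 2.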
